A study of Rattus norvegicus with 7 samples.

Results

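The genes described are Napsa, LOC691277, Tmigd1, Mettl7b, LOC252890 and A1cf, 6 of the 16468 genes in the RNA table of rat colon crypts. They were chosen by symbol as genes of no common family whose level was at least 2-fold higher in proximal than in distal crypts, so their proximal to distal ratio is how they were picked and is given here as a description. The study sequenced RNA from crypts, the epithelial pits of the colon, of Sprague Dawley rats aged 14 weeks, an outbred laboratory strain, with no treatment named in the labels. The proximal group is 1 library of proximal colon crypts and the distal group is 1 library of distal colon crypts, each made from material of 7 rats pooled together. With 1 library per region no spread between replicates exists, no test of the regions was made, and each difference compares these 2 libraries. In such bulk material fewer cells of a type and less RNA per cell cannot be told apart.

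The 6 genes have little in common by known function. Napsa encodes napsin A, an aspartic protease of secretory and lysosomal compartments that is known from alveolar type II cells of the lung, where it processes pro-surfactant protein B, and from the proximal tubule of the kidney. Tmigd1 encodes a membrane protein with immunoglobulin-like domains that acts in cell adhesion of renal and intestinal epithelium. Mettl7b encodes a membrane-bound thiol methyltransferase, and the human enzyme methylates hydrogen sulfide. A1cf encodes the RNA-binding cofactor of the cytidine deaminase Apobec1, which edits apolipoprotein B mRNA in the intestine and liver. LOC691277 carries the symbol Bpifb9a in RefSeq (GRCr8 assembly), and LOC252890 is annotated there as a small nuclear RNA gene spanning 60 bases. The other 5 genes are annotated as protein coding.

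LOC691277 had the highest level of the 6 in the proximal library, at 968 FPKM (fragments scaled to transcript length and to the size of the library), against 23.8 FPKM in the distal library. LOC252890 stood at 614 FPKM in proximal and 257 FPKM in distal crypts, and Mettl7b at 420 FPKM in proximal and 181 FPKM in distal crypts. Tmigd1 stood at 108 FPKM in proximal and 23.1 FPKM in distal crypts. LOC691277, Mettl7b and Tmigd1 were well expressed at both ends of the colon. LOC252890 is annotated at 60 bases and shares its listed locus with another gene, Cox7c, so its FPKM is a less certain measure of its level. Napsa reached 52.4 FPKM in the proximal library and was near the lower end of the measured genes in the distal library, at 1.27 FPKM. A1cf was the lowest of the 6 in the proximal library, at 9.56 FPKM, against 4.57 FPKM in the distal library. Their proximal levels thus spanned 101-fold and their distal levels 203-fold.

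**Figure D1:**
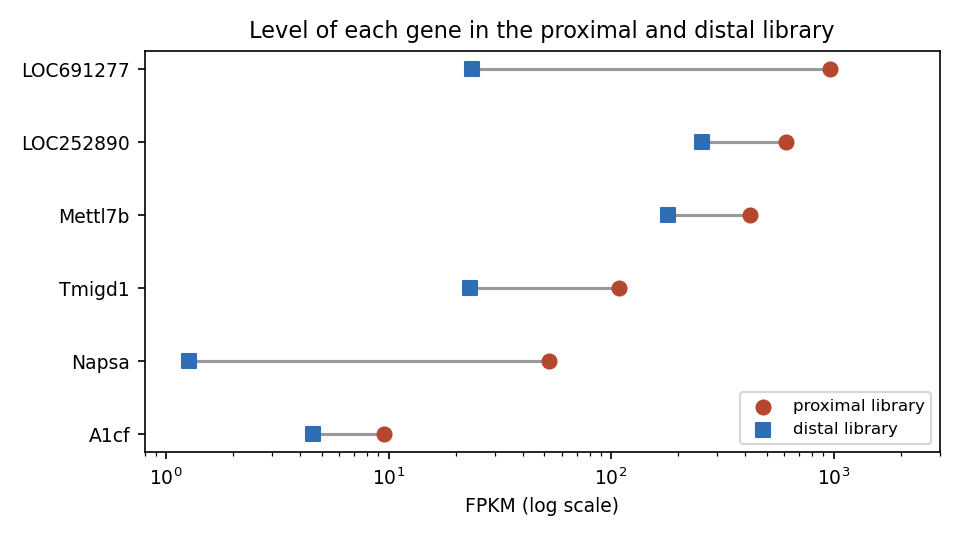
Level of each of the 6 genes in FPKM (log axis) in the proximal library (circles) and the distal library (squares), 1 library each, joined by a line. Every circle lies right of its square, by which the genes were chosen; the longest lines are those of Napsa (52.4 FPKM in proximal, 1.27 FPKM in distal crypts) and LOC691277 (968 FPKM in proximal, 23.8 FPKM in distal crypts).

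By listed FPKM, the word abundant applied to 5 of the 6 genes, with the limit on LOC252890 given above. Among the 9847 genes with at least 1 FPKM in 1 library, called measured here, LOC691277 ranked 36 in proximal and 3710 in distal crypts. LOC252890 ranked 70 in proximal and 261 in distal crypts, and Mettl7b 109 in proximal and 416 in distal crypts. Tmigd1 ranked 683 in proximal and 3796 in distal crypts, and Napsa 1543 in proximal and 9202 in distal crypts. A1cf, at rank 6143 in proximal and 7731 in distal crypts, was above only 37.6% of measured genes in the proximal library, so the data do not bear out the name for it.

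The plain ratios of proximal to distal FPKM fell into separate sizes. They were 41.4 for Napsa and 40.7 for LOC691277, 4.69 for Tmigd1, and 2.39, 2.32 and 2.09 for LOC252890, Mettl7b and A1cf. On the scale log2((proximal FPKM + 1)/(distal FPKM + 1)), which understates differences of low genes, LOC691277 stood at 5.29, Napsa at 4.56, Tmigd1 at 2.18, LOC252890 at 1.25, Mettl7b at 1.21 and A1cf at 0.92. On this scale 5 of the 6 passed 2-fold towards the proximal library, as 3.91% of all measured genes did; A1cf did not, but passed at 1.01 and 1.06 when distal values were rescaled by the median ratio or by the upper quartile. This count follows from how the genes were chosen. A1cf passed 2-fold by the plain ratio, as 6.65% of measured genes did. The median of the 6 was 1.72, beside a median of -0.09 over all measured genes. Napsa ranked 19 and LOC691277 ranked 14 of 9847 by this ratio.

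**Figure D2:**
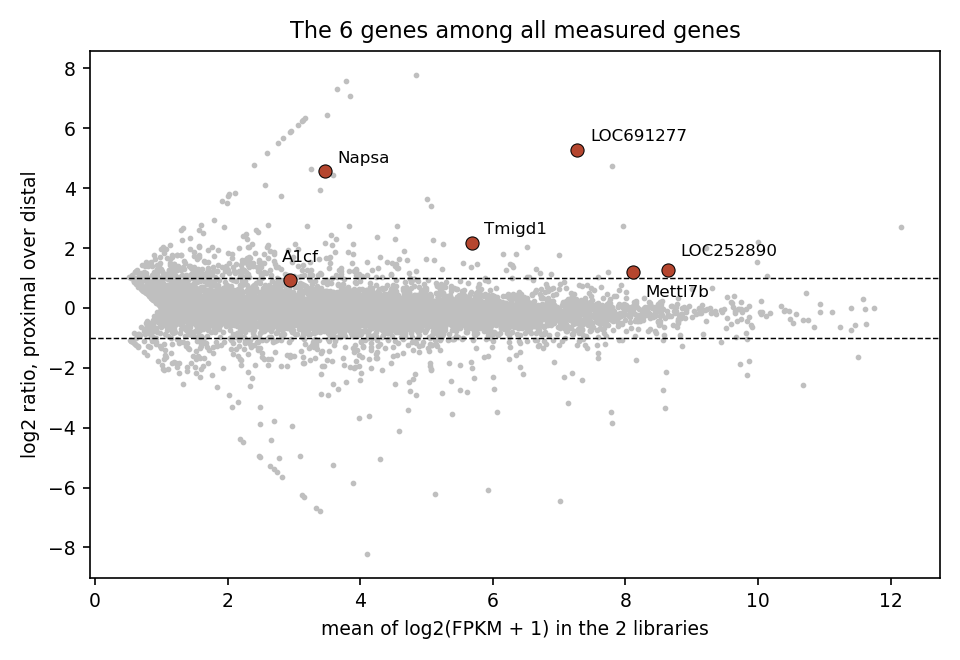
Log2 ratio of proximal over distal (y axis, on FPKM + 1) against the mean of log2(FPKM + 1) in the 2 libraries (x axis) for 9847 measured genes (grey) and the 6 genes (red); dashed lines mark 2-fold. LOC691277 at 5.29 is exceeded in ratio by 0.13% of measured genes and has Fabp1, at 4.74, near it. A1cf at 0.92 is exceeded by 4.48% of measured genes.

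The fold at which the genes were chosen cuts through a continuous range. Of 6143 genes with at least the proximal level of A1cf, 172 (2.80%) had a plain ratio of 2 or more. Just inside the threshold lay Macrod1, at 36.8 FPKM in proximal and 18.4 FPKM in distal crypts, and Otud6b, at 14.5 FPKM in proximal and 7.20 FPKM in distal crypts. Just outside lay Hoxb9, at 109 FPKM in proximal and 54.6 FPKM in distal crypts, and Dnajc15, at 38.2 FPKM in proximal and 19.2 FPKM in distal crypts. The 6 genes are therefore a small selection of those that meet the fold and level.

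The authors' deposited table called 4 of the 6 genes higher in the proximal library, as it did 2.69% of the rows it tested, and it did not call LOC252890 or A1cf. Its log2 fold changes run distal over proximal, so that negative values mean higher in the proximal library, and the ratio of a fold change to the table's test statistic gives the standard error behind it. In the authors' deposited table LOC691277 had a log2 fold change of -5.35 with an error of 0.42 so derived, and its q is listed at 0. Napsa had -5.37 with an error of 0.58 in the authors' deposited table, its q also listed at 0. For Tmigd1 the authors' deposited table gave -2.23, a q of 4.85e-09 with an error of 0.34. For Mettl7b the authors' deposited table gave -1.22 (listed as -1.215), a q of 0.0185 with an error of 0.36. For A1cf the authors' deposited table gave -1.06, a q of 0.329 and an implied standard error of 0.51, so its difference is about as large as 2 such errors. These errors come from the model behind that table and do not measure variation between rats.

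Napsa lies on chromosome 1 (rn4 build, 95050761 to 95062774) and shares its locus with no other row. The row before it is Nr1h2, the oxysterol receptor LXR beta, 18.2 kb away, at 68.5 FPKM in proximal and 84.0 FPKM in distal crypts. On the other side, 19.2 kb away, lies Myh14, which encodes a non-muscle myosin heavy chain, at 222 FPKM in proximal and 223 FPKM in distal crypts. None of the 10 nearest measured rows, 5 on each side, was 2-fold apart, beside 7.62% of all measured genes. Their log2 ratios ran from -0.37 to 0.15. The 41.4-fold ratio of Napsa thus stood among rows that were close to equal in both libraries.

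Other aspartic proteases and cathepsins did not share the ratio of Napsa. For the 16 measured genes of this list the median log2 ratio was -0.21, beside -0.09 over all measured genes. It was -0.04 when the distal library was rescaled to the same upper quartile. Of these 16, 0 lay 2-fold or more towards the proximal library and 1 towards the distal library, beside 3.91% and 3.71% of all measured genes. The exception was Ctse, cathepsin E, an intracellular aspartic protease, which was 3.75-fold higher in the distal library, with 16.5 FPKM in proximal and 62.0 FPKM in distal crypts. Ctsd, the lysosomal aspartic protease cathepsin D, stood at 156 FPKM in proximal and 255 FPKM in distal crypts. Sftpb, which encodes the surfactant protein whose precursor napsin A cleaves in the lung, was listed at 0 FPKM in both libraries, as was Sftpd. Of 9 lung epithelial markers in the table, most of them of alveolar type II cells, 7 were under 1 FPKM in both libraries. The list summed to 3.15 FPKM in proximal and 7.15 FPKM in distal crypts. Ager, not a type II marker and in a shared locus, made up 1.87 FPKM of this in proximal and 3.36 FPKM in distal crypts. The phosphate transporter Slc34a2 of that list stood at 0.0548 FPKM in proximal and 3.37 FPKM in distal crypts.

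LOC691277 lies on chromosome 10 (rn4 build, 44052684 to 44057645), between rows that RefSeq names as Ly6/Plaur domain genes. The row before it, LOC691259, named Lypd8 in RefSeq, lies 23.4 kb away. Lypd8 encodes a secreted protein of the colon epithelium that in mice binds the flagella of bacteria. It stood at 3085 FPKM in proximal and 3175 FPKM in distal crypts, a plain ratio of 0.972, while LOC691277 beside it had a ratio of 40.7. On the other side, LOC24906, named Lypd8l1, lies 14.8 kb away and stood at 0.177 FPKM in proximal and 0.0979 FPKM in distal crypts, and LOC691286, named Lypd9, was listed at 0 in both. The 9 olfactory receptor rows in the 300 kb after LOC691277 were also listed at 0 in both libraries. A further row of the Ly6 kind, LOC691352, named Lypd8l2, lies 413 kb away and stood at 1.16 FPKM in proximal and 0.642 FPKM in distal crypts. LOC691277 and Lypd8 were thus both abundant in proximal crypts, and only LOC691277 was much lower in distal crypts. None of the 10 nearest measured rows was 2-fold apart on FPKM + 1, beside 7.62% of all measured genes. By the plain ratio Trim17, 1198 kb away at 1.53 FPKM in proximal and 0.742 FPKM in distal crypts, was 2.06-fold higher in the proximal library.

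Promoter sequences of RefSeq (GRCr8 assembly), which hold 250 bases before and 50 after each gene start, were found for 4 of the 6 genes, LOC691277, Tmigd1, Mettl7b and A1cf. They are shown for the 3 of these that the authors' deposited table called, LOC691277 on the plus strand at chr10:43095996-43096295, Tmigd1 on the plus strand at chr10:62236965-62237264 and Mettl7b on the minus strand at chr7:1975931-1976230. Capitals mark matches, on either strand, to 6 short motifs: TATAAA of core promoters, AGATAA, which factors of the GATA family bind, TTTATNG, bound by CDX factors, CAAAGTCC, bound by HNF4, GTTAAT, bound by HNF1, and AGGTCA, bound by many nuclear receptors. The sequences run 5′ to 3′ along the gene's strand.
LOC691277: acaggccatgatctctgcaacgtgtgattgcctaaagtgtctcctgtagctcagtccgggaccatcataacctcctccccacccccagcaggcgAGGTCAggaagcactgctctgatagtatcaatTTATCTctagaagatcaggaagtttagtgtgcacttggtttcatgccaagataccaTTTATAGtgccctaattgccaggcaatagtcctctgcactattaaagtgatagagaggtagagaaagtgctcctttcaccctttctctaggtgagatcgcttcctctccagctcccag
Tmigd1: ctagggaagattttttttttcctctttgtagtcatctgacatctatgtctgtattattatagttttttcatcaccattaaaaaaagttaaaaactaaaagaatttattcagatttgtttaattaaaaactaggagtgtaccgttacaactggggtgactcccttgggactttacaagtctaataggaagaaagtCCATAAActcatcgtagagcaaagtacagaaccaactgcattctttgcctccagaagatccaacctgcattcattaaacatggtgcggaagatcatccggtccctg
Mettl7b: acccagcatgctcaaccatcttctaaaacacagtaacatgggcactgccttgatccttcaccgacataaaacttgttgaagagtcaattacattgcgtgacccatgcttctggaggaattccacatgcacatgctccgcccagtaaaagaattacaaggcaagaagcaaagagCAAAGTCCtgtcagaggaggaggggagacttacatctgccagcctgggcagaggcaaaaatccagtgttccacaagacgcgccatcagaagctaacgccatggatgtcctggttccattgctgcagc

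The sets of motifs differed between the 3 promoters, though LOC691277 and Tmigd1 shared TTTATNG. The LOC691277 promoter had AGGTCA starting 156 bases before the gene start, AGATAA (on the other strand) at 124 bases, and TTTATNG at 68 bases, which overlaps TATAAA read on the other strand. The Tmigd1 promoter had TTTATNG on the other strand 56 bases before the start. The Mettl7b promoter had CAAAGTCC 77 bases before the start, and the A1cf promoter held none of the 6 motifs. Such short matches are common: of 33469 RefSeq promoters of the same length, AGGTCA was in 16.2%, TATAAA in 14.2%, AGATAA in 11.6%, TTTATNG in 11.3%, GTTAAT in 7.45% and CAAAGTCC in 1.40%. A match is a feature of the sequence and not an observed binding site. The GC content was 48.3% for LOC691277, 36.0% for Tmigd1, 49.3% for Mettl7b and 39.7% for A1cf, beside a median of 51.7% over all RefSeq promoters.

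Tmigd1 lies on chromosome 10 (rn4 build, 67260664 to 67272691) and shares its locus with no other row. Before it lie Blmh, which encodes bleomycin hydrolase, at 20.4 FPKM in proximal and 22.9 FPKM in distal crypts, and Slc6a4, the serotonin transporter gene, at 20.4 FPKM in proximal and 19.7 FPKM in distal crypts. After it lies Cpd, which encodes a carboxypeptidase, at 47.1 FPKM in proximal and 53.6 FPKM in distal crypts. The log2 ratios of the 10 nearest measured rows ran from -0.32 to 0.43, none of them 2-fold apart (7.62% over all measured genes).

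Genes of epithelial adhesion and of the brush border scaffold had more members past 2-fold in the direction opposite to Tmigd1. Of 22 measured genes of this list, 1 passed 2-fold towards the proximal and 4 towards the distal library (3.91% and 3.71% over all measured genes); the median log2 ratio was -0.38, or -0.21 when the distal library was rescaled to the same upper quartile. Higher in the distal library were Vsig1, a junction protein with immunoglobulin-like domains, at 4.78 FPKM in proximal and 98.1 FPKM in distal crypts (20.5-fold), and its relative Vsig2, at 3.17 FPKM in proximal and 30.4 FPKM in distal crypts (9.58-fold). Also higher there were Rdx, which encodes the membrane-cytoskeleton linker radixin, at 1.37 FPKM in proximal and 9.38 FPKM in distal crypts (6.86-fold), and Esam, an adhesion molecule also known from endothelium, at 6.54 FPKM in proximal and 22.9 FPKM in distal crypts (3.50-fold). Msn, which encodes moesin, stood at 7.03 FPKM in proximal and 2.10 FPKM in distal crypts (3.35-fold higher in the proximal library), and it is also expressed in lymphocytes, whose 13 markers in the table summed to 180 FPKM in proximal and 53.4 FPKM in distal crypts; their part in this value was not tested. The genes of the scaffold proteins that bind Tmigd1, Slc9a3r1 at 82.5 FPKM in proximal and 127 FPKM in distal crypts and Slc9a3r2 at 8.64 FPKM in proximal and 11.8 FPKM in distal crypts, were under 2-fold apart. The authors' deposited table called Msn higher in the proximal library and the 4 others higher in the distal library, where it called 2.73% of its tested rows.

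Mettl7b is listed on chromosome 7 (rn4 build, 2230747 to 2272039), a locus it shares with Itga7, which encodes a laminin-binding integrin subunit. The gene itself spans 2647 bases in RefSeq, against a listed locus of 41293 bases, so the position in the table is that of the joint locus. Itga7 stood at 17.1 FPKM in proximal and 7.46 FPKM in distal crypts, a plain ratio of 2.29 beside the 2.32 of Mettl7b. The level of Mettl7b was 24.5 times that of Itga7 in proximal and 24.3 times in distal crypts, so the pair kept nearly the same proportion at both ends. The authors' deposited table did not call Itga7 (q of 0.857, implied standard error of 0.97). How far reads of one gene were counted for the other was not tested. The measured rows just before the locus did not share the ratio. Bloc1s1, 9.02 kb before, stood at 82.6 FPKM in proximal and 95.5 FPKM in distal crypts, and Cd63, which encodes a tetraspanin of late endosomes, at 427 FPKM in proximal and 775 FPKM in distal crypts. The 7 rows in the 300 kb after the locus were olfactory receptor genes listed at 0 in both libraries, and the next measured row lay 6887 kb away; it was the zinc finger gene Zfp709l1, at 1.83 FPKM in proximal and 0.795 FPKM in distal crypts, 2.31-fold by the plain ratio but under 2-fold on FPKM + 1.

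Of 12 measured genes of small-molecule methylation, 1 passed 2-fold towards the proximal library and 0 towards the distal library (3.91% and 3.71% over all measured genes), and the median log2 ratio was 0.06. Mettl7a, the closest relative of Mettl7b, stood at 492 FPKM in proximal and 394 FPKM in distal crypts, and Tpmt, thiopurine methyltransferase, at 113 FPKM in proximal and 112 FPKM in distal crypts. Pemt, which makes phosphatidylcholine by methylation, stood at 13.2 FPKM in proximal and 5.62 FPKM in distal crypts (2.35-fold) and was not called in the authors' deposited table. Among 10 genes of sulfide and thiol handling, 2 passed 2-fold towards the proximal and 1 towards the distal library (3.91% and 3.71% over all measured genes), the median being 0.19. Selenbp1, whose human product oxidises methanethiol, stood at 1634 FPKM in proximal and 776 FPKM in distal crypts (2.11-fold), and Cth, cystathionine gamma-lyase, at 113 FPKM in proximal and 46.5 FPKM in distal crypts (2.44-fold). The mitochondrial sulfide oxidase gene Sqrdl, at 633 FPKM in proximal and 411 FPKM in distal crypts, and Mpst, a sulfurtransferase gene, at 317 FPKM in proximal and 186 FPKM in distal crypts, were under 2-fold apart. Suox, at 2.62 FPKM in proximal and 5.37 FPKM in distal crypts, was 2.05-fold higher in the distal library by the plain ratio but under 2-fold on FPKM + 1. Ethe1 stood at 1364 FPKM in proximal and 1467 FPKM in distal crypts. Of the 10 genes, 6 had log2 ratios above 0 and 4 below 0. Txn1, thioredoxin, was 3.08-fold higher in the distal library, at 1666 FPKM in proximal and 5132 FPKM in distal crypts. The authors' deposited table called Cth and Txn1 but not Selenbp1.

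LOC252890 is listed on chromosome 2 (rn4 build, 15254040 to 15256065), the same locus as Cox7c, which encodes a subunit of cytochrome c oxidase. Cox7c stood at 914 FPKM in proximal and 801 FPKM in distal crypts, a plain ratio of 1.14 beside the 2.39 of LOC252890. The level of LOC252890 was 0.672 of that of Cox7c in proximal and 0.322 in distal crypts. In the authors' deposited table the log2 fold change of LOC252890, -1.25, had an implied error of 14.5 and a q of 0.999624, against 0.31 for the error of Cox7c. Of the 6 genes it is the one with the least certain ratio, and its listed level of 614 FPKM is uncertain too. The listed locus of 2026 bases is far longer than the 60 bases of its annotation, and how reads there were divided between it and Cox7c was not tested. It was the only measured row annotated as a small nuclear RNA. Among 40 measured rows annotated as microRNA genes, also short, 72.5% were at least 2-fold apart in either direction, against 7.62% of all measured genes and 7.33% of 9725 protein-coding ones. The authors' deposited table called 0 of the 40, beside 2.69% of its tested rows towards the proximal and 2.73% towards the distal library. Apart from Cox7c the nearest measured rows lay far away, Rasa1 966 kb before, at 14.3 FPKM in proximal and 12.7 FPKM in distal crypts, and Xrcc4 4648 kb after, at 1.92 FPKM in proximal and 2.22 FPKM in distal crypts.

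A1cf lies on chromosome 1 (rn4 build, 235865843 to 235958065). The row after it is Asah2, a neutral ceramidase gene 42.7 kb away, at 1.43 FPKM in proximal and 1.18 FPKM in distal crypts. The row before it, Prkg1, was listed at 0 in both libraries, and Cstf2t, within the same listed locus as Prkg1, stood at 15.8 FPKM in proximal and 16.1 FPKM in distal crypts. Of the 10 nearest measured rows, 0 passed 2-fold towards the proximal and 2 towards the distal library (3.91% and 3.71% over all measured genes). They were Papss2, an enzyme that makes the sulfate donor for sulfation, at 27.3 FPKM in proximal and 56.6 FPKM in distal crypts, and the cytokine gene Il33, at 1.94 FPKM in proximal and 6.59 FPKM in distal crypts. Both were called higher in the distal library in the authors' deposited table, and they lie 634 kb after and 2180 kb before A1cf.

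Apobec1 and Rbm47, the direct partners of A1cf in RNA editing, had log2 ratios of -0.25 and -0.21, beside a median of -0.09 over all measured genes. The authors' deposited table called neither. Apobec1, the deaminase itself, stood at 10.04 FPKM in proximal and 12.1 FPKM in distal crypts, and A1cf at 9.56 FPKM in proximal and 4.57 FPKM in distal crypts. Rbm47, another RNA-binding cofactor of Apobec1, stood at 73.3 FPKM in proximal and 84.9 FPKM in distal crypts. The target mRNA Apob was low, at 1.13 FPKM in proximal and 1.07 FPKM in distal crypts. Of 8 measured genes of RNA editing, 0 were 2-fold apart on FPKM + 1 (7.62% over all measured genes), as A1cf itself was not. By the plain ratio, on which A1cf was chosen, Celf2, an RNA-binding protein gene at 2.64 FPKM in proximal and 0.893 FPKM in distal crypts (2.96-fold), and Apobec3b, a cytidine deaminase gene at 1.68 FPKM in proximal and 0.826 FPKM in distal crypts (2.04-fold), passed 2-fold too. On the log scale 1 of the 8 passed with a pseudocount of 0.1 FPKM or with upper-quartile rescaling. The list had a median log2 ratio of -0.09 that turned to 0.04 when the distal library was rescaled to the same upper quartile. Of 11 measured genes of lipoprotein assembly, 2 passed 2-fold towards the proximal and 0 towards the distal library (3.91% and 3.71% over all measured genes), the median being 0.04. They were Fabp1, a fatty acid-binding protein of the absorptive epithelium, at 1153 FPKM in proximal and 42.2 FPKM in distal crypts (27.3-fold), and Dgat2, an enzyme of triglyceride synthesis, at 22.8 FPKM in proximal and 8.88 FPKM in distal crypts (2.56-fold). Both were called in the authors' deposited table, and also Mttp, the transfer protein that loads apolipoprotein B, at 1.05 FPKM in proximal and 0.173 FPKM in distal crypts. Mttp was 6.05-fold higher in the proximal library by the plain ratio but under 2-fold on FPKM + 1.

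**Figure D3:**
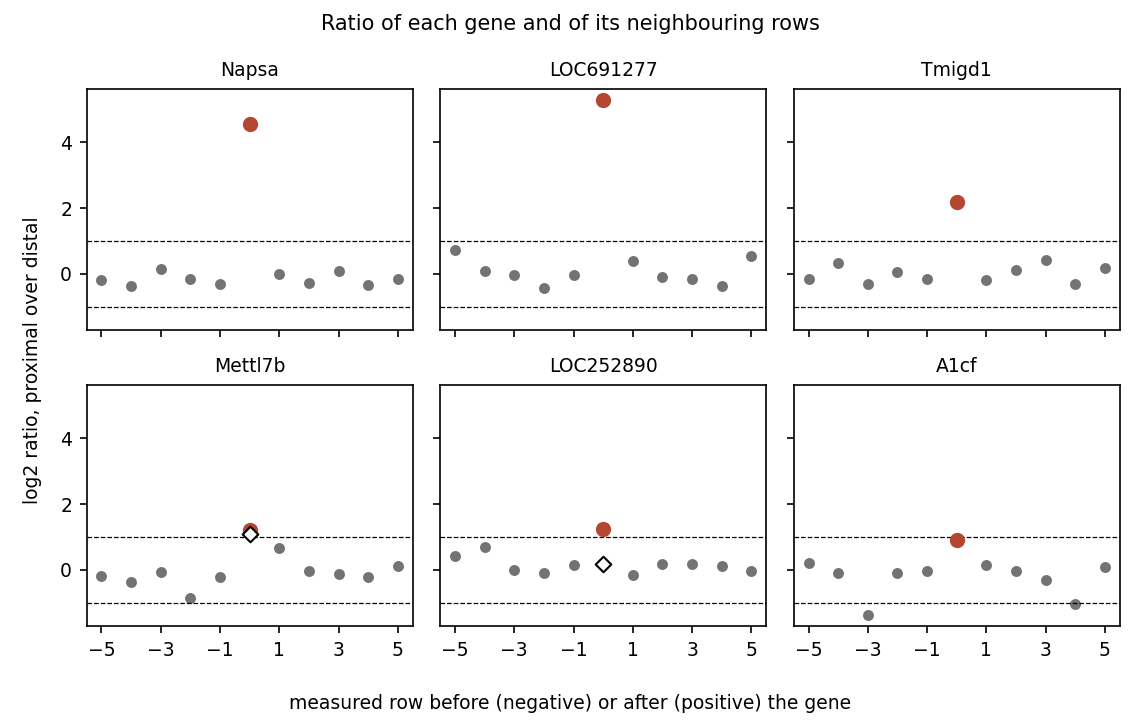
Log2 ratio of proximal over distal (y axis, on FPKM + 1) for each of the 6 genes (red), the row sharing its locus (white diamond: Itga7 for Mettl7b, Cox7c for LOC252890) and the 5 nearest measured rows before and after it (grey, x axis in row order, not to distance); dashed lines mark 2-fold. Of the 60 neighbours 0 lie above the upper line and 2, both beside A1cf, lie below the lower line.

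Over all 6 genes, 0 of 60 neighbouring rows passed 2-fold towards the proximal library and 2, or 3.33%, towards the distal library, beside 3.91% and 3.71% of all measured genes. By the plain ratio Trim17 and Zfp709l1, both near 1 FPKM, passed 2-fold towards the proximal library. Itga7, in the shared locus of Mettl7b and not counted among the 60, passed on both scales.

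Napsa and Tmigd1 are known from the renal proximal tubule. Of 19 measured genes of that tubule and of small intestinal absorption, 2 passed 2-fold towards the proximal and 5 towards the distal library (3.91% and 3.71% over all measured genes), and the median log2 ratio was -0.38. The proximal ones were Slc13a1, a sulfate transporter, at 24.5 FPKM in proximal and 0.911 FPKM in distal crypts (26.9-fold), and Slc7a9, an amino acid transporter subunit, at 3.25 FPKM in proximal and 1.05 FPKM in distal crypts (3.10-fold). Higher in the distal library were Pdzk1ip1, a small membrane protein, at 9.43 FPKM in proximal and 78.1 FPKM in distal crypts (8.29-fold), the endocytic receptor subunit Amn, at 6.95 FPKM in proximal and 17.5 FPKM in distal crypts (2.52-fold), and the aminopeptidase Anpep, at 0.628 FPKM in proximal and 2.52 FPKM in distal crypts (4.02-fold). So were the peptide transporter Slc15a1, at 0.231 FPKM in proximal and 3.41 FPKM in distal crypts, and the endopeptidase Mme, at 0.441 FPKM in proximal and 4.10 FPKM in distal crypts, both low in the proximal library. The nuclear receptor Hnf4a, which drives many absorptive genes, stood at 166 FPKM in proximal and 205 FPKM in distal crypts. The authors' deposited table called 1 of the 19 towards the proximal and 3 towards the distal library, beside 2.69% and 2.73% of the rows it tested.

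**Figure D4:**
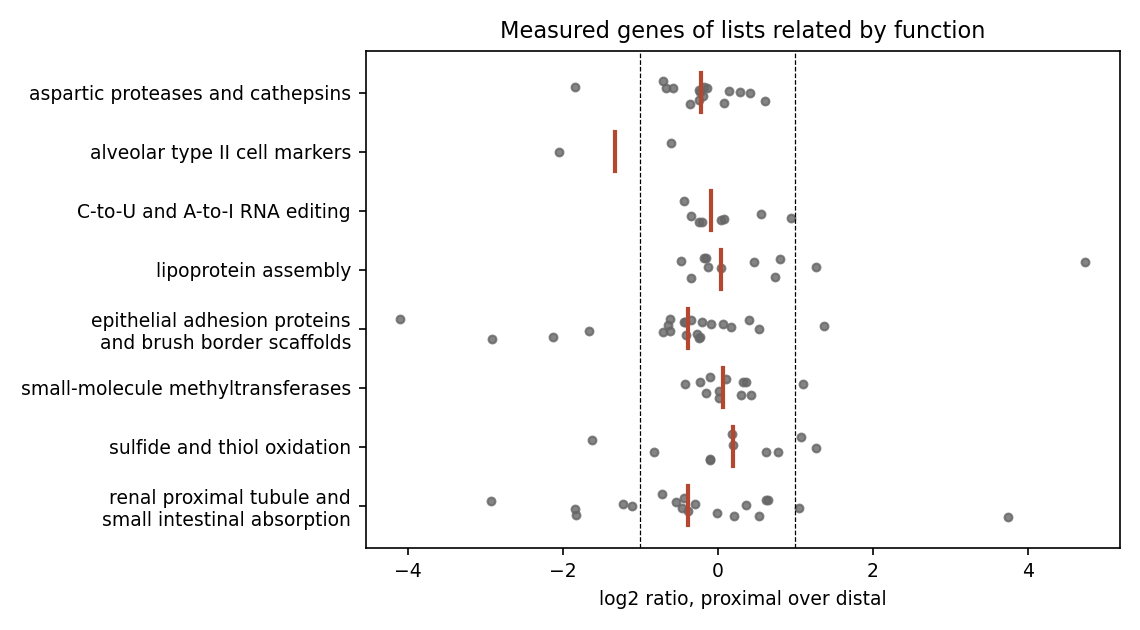
Log2 ratio of proximal over distal (x axis, on FPKM + 1) of the measured genes (points) of 8 lists related to the 6 genes by function, with the median of each list (red bar); points are spread vertically for view, and dashed lines mark 2-fold. Of 99 genes, each counted once, 8 lie beyond the right-hand line and 12 beyond the left-hand line.

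Across the 8 lists together, which leave out the 6 genes themselves, 8 of 99 measured genes (8.08%) passed 2-fold towards the proximal and 12 (12.1%) towards the distal library, where 3.91% and 3.71% of all measured genes did. The lists were chosen with earlier results of these data known, so their shares are a description and not a test against all measured genes. No list had more than 2 measured members past 2-fold towards the proximal library.

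With 2 libraries, likeness of pattern was measured as the distance between genes in log2(FPKM + 1) of both libraries. The measured genes nearest to Napsa were the homeobox genes Hoxb7, at 55.2 FPKM in proximal and 1.59 FPKM in distal crypts (distance 0.20), and Hoxb8, at 46.5 FPKM in proximal and 0.916 FPKM in distal crypts (0.30), and then Gsta5, a glutathione transferase, at 40.2 FPKM in proximal and 1.70 FPKM in distal crypts (0.45). LOC691277 had only 1 gene within a distance of 1, Fabp1 (0.84), followed by S100g, a calcium-binding protein, at 644 FPKM in proximal and 96.2 FPKM in distal crypts (2.06), and Spink4, a goblet cell product, at 236 FPKM in proximal and 68.0 FPKM in distal crypts (2.51). Among the genes nearest to Tmigd1 were Chga, the chromogranin A gene of endocrine cells, at 89.1 FPKM in proximal and 31.6 FPKM in distal crypts (distance 0.52), and the sulfate transporter gene Slc26a2, at 81.1 FPKM in proximal and 30.5 FPKM in distal crypts (0.57), with 17 genes within a distance of 1. Mettl7b was nearest to Mpst (0.40), Pycard (0.50) and LOC363060 (0.52), among 70 genes within that distance, and none of these 3 was 2-fold apart. LOC252890 was nearest to Sqrdl (0.67), Mettl7a (0.69) and Emp1 (0.74), among 42 genes. A1cf had 1520 genes within a distance of 1, led by Neu3, a sialidase gene, at 9.46 FPKM in proximal and 4.70 FPKM in distal crypts (0.03), Prodh, the proline dehydrogenase gene (0.04), and Aplp1, a relative of the amyloid precursor protein (0.05). Within a distance of 1 lay 15.4% of measured genes for A1cf and under 1% for each of the other 5; these distances rest on the levels by which the genes were chosen.

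As to the make-up of the libraries, the values of all genes summed to 412814 FPKM in proximal and 463340 FPKM in distal crypts, and the sources used here do not give total read numbers, so the depth is unknown. Epithelial markers were high in both, with Epcam at 1490 FPKM in proximal and 1991 FPKM in distal crypts, and 11 of 13 measured markers were under 2-fold apart, while Cldn3 was listed at 0 in both. The counts of markers that follow stand beside 3.91% of all measured genes past 2-fold towards the proximal and 3.71% towards the distal library. Of 10 measured lymphocyte markers, 5 passed 2-fold towards the proximal and 0 towards the distal library, among them the B-cell genes Cd79b, at 8.80 FPKM in proximal and 0.502 FPKM in distal crypts, and Ms4a1, at 6.32 FPKM in proximal and 0.202 FPKM in distal crypts; none of the 13 in the table was at 0 in both libraries. Cd74, at 131 FPKM in proximal and 37.0 FPKM in distal crypts, made up most of their sum in both libraries. Of 7 measured myeloid markers 2 passed 2-fold towards the proximal and 0 towards the distal library, with sums of 137 FPKM in both, of which Cd14 made up 101 FPKM in proximal and 116 FPKM in distal crypts, and Emr1 was listed at 0 in both. Of 6 measured stromal and muscle markers 1 passed 2-fold on each side, with sums of 23.5 FPKM in proximal and 18.1 FPKM in distal crypts and Dcn and Lum listed at 0 in both. Of 6 measured small intestinal markers 1 passed 2-fold on each side, with sums of 97.6 FPKM in proximal and 78.4 FPKM in distal crypts, and Alpi was listed at 0 in both. Of 13 measured endocrine and goblet markers, the 4 past 2-fold towards the proximal library were all endocrine (Chga, 2.82-fold; Chgb, 3.53-fold; Tph1, 3.54-fold; Slc18a1, 6.52-fold). The 3 past 2-fold towards the distal library were all goblet cell genes (Tff3 3.69-fold, Fcgbp 4.42-fold and Clca1 4.78-fold), and goblet genes made up most of the list's sums of 3559 FPKM in proximal and 7528 FPKM in distal crypts. The authors' deposited table called Chga, Chgb, Tph1, Slc18a1 and Tff3, but not Fcgbp or Clca1. The other 6, the endocrine Scg5 and Neurod1 and the goblet genes Agr2, Spdef, Zg16 and Atoh1, were under 2-fold apart. Spink4, a goblet cell product outside the list, was 3.47-fold higher in the proximal library. The part of these cells in the levels of the 6 genes was not tested.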

How the data were processed

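RNA of 2 libraries of rat colon crypts was analysed, 1 proximal and 1 distal, grouped by sample title and matched to the table's columns through the sample names it prints. The 5 chromatin immunoprecipitation libraries of the series are not used. Per the submitters' processing notes, CASAVA and TopHat2 and the build rn4 go with these samples, with no versions; the sources used here do not name the program behind the table. Its deposited expression columns were read as FPKM made by the authors, judged by their form. The deposited p-values and q-values, fold changes and test statistics are the authors' own. The p-values equal the two-sided normal tail of the statistic to within 2.76e-06, so fold change over statistic was used as a standard error.

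Of 16492 rows, 23 low in data or failed and 1 repeated gene were left out. Positions count from 0 (on that reading 1186 of 1187 short olfactory receptor loci have lengths divisible by 3), and 1 was added to each start. Of 16468 genes, 16297 were found by ID, symbol or synonym in the RefSeq table of GRCr8, used for names, types and gene spans. The promoter sequences were also those of RefSeq (GRCr8). Ratios used a pseudocount of 1 FPKM and a minimum of 1 FPKM in 1 library; folds beside FPKM values are plain ratios. Counts of genes at least 2-fold apart replace a test, with 1 library per region. The ratio and rescaling steps were tested on simulated data. Named were the 6 genes, rows overlapping or next to them, the 3 genes nearest to each by level, list members at least 2-fold apart (at most 4 per direction) and direct partners; some genes that this rule names are not reported here; further rows named in the neighbourhoods, and listed markers, were chosen after their values were seen, as were the motifs. The 6 genes and all lists were chosen with earlier results of these data known. Of the measures tried otherwise, the pseudocount, minimum, fold, scaling, number of neighbours and shared loci, the effect is given at the end. Python 3.11.15, pandas 2.3.3 and scipy 1.17.1 were used.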

Additional observations from a re-analysis of the deposited data

How the results depend on the processing

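The alternatives run could not turn the direction of the 6 ratios, since a pseudocount keeps it and both rescalings lower the distal values. The log2 ratio of Napsa moved most, from 3.20 with a pseudocount of 5 FPKM to 5.26 with 0.1 FPKM, since its distal level is low. A1cf ran from 0.61 to 1.06 and was at least 2-fold higher with a pseudocount of 0.1 FPKM and under both rescalings of the distal library, which gave 6 of 6 genes. The number of neighbouring rows higher in the proximal library, 0 as reported, was 1 with a pseudocount of 0.1 FPKM and 3 at 1.5-fold. The number higher in the distal library, 2 as reported, was 1 with either rescaling, with no minimum and with 3 rows on each side, 0 with a pseudocount of 5 FPKM and at 4-fold, and 7 with 10 rows on each side. Genes of the 8 lists higher in the proximal and distal library, 8 and 12 as reported, were 4 and 7 with a pseudocount of 5 FPKM, 16 and 21 at 1.5-fold, and 2 and 5 at 4-fold. The median of the lipoprotein list, 0.04 as reported, was -0.13 with a minimum of 5 FPKM. These moves follow from the changed scale, fold or number of rows. With a minimum of 5 FPKM no marker of the lung list was left. No paired analysis was possible because each region had 1 library. Read depth, unknown here, limits low values such as the distal level of Napsa.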
